A study of Homo sapiens with 6 samples.

Results

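The proteins of the mitochondrial ribosome were measured as mRNAs in K562, a long-established line of human erythroleukaemia cells that carries the BCR-ABL1 fusion, with and without a vector for the microRNA miR-543. The genes were chosen by name: every symbol of the platform annotation made of MRPL or MRPS, a number and an optional letter. This gave 74 genes on 74 probe sets, 1 probe set each, of 17687 distinct gene symbols and 21448 probe sets in all. MRPL45, MRPL53, MRPS6 and MRPS36 were not analysed here. The control group was K562 cells with a control vector (3 arrays), and the other group was K562 cells with a miR-543 vector (3 arrays). Both groups were the same line, with bone marrow given as the tissue and erythroleukemia as the genotype. The labels name neither the vector backbone nor a clone or the time after vector delivery. They also leave unsaid whether the replicates came from separate cultures. The p-values therefore measure only the spread between these arrays, which may be technical.

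Mitochondria keep their own ribosome, which makes the few respiratory chain subunits encoded in mitochondrial DNA. Its ribosomal RNAs come from that DNA, while all of its proteins are encoded in the nucleus, made in the cytosol and imported. The small subunit reads the mRNA and the large subunit forms the peptide bond beside the inner membrane. Some of the proteins descend from bacterial ribosomal proteins and others were added during the evolution of mitochondria. The letter in a symbol does not always give the subunit: MRPS30 and MRPS18A sit in the large subunit in known structures and were counted there, which gave 49 large-subunit and 25 small-subunit genes.

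miR-543 is encoded in a microRNA cluster on chromosome 14. Its mature sequence from RefSeq (GRCh38.p14, chr14:101032033-101032054, plus strand) is shown because it is the agent that the labels name between the groups, with the seed, bases 2 to 8, in capitals. No target site was searched in these genes, as no transcript sequences were used here.
miR-543: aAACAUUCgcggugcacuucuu

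Promoter sequences show what the genes share outside the measured values. Promoters of nuclear genes for mitochondrial proteins are often described as bound by NRF1, by ETS factors such as GABP and by YY1. RefSeq windows of 300 bases (250 before and 50 after a transcript start, GRCh38.p14) were given for 66 of the 74 genes, and the first window listed for each gene was searched on both strands. The ETS letters CCGGAAG stood in 28 windows (42.4%), beside 10.7% of the 27305 genes' windows in the whole table and 14.3% of those of the 14250 genes on the array. The YY1 letters AAGATGG stood in 22 (33.3%), beside 6.06% and 6.44%, and the NRF1 letters GCATGCG in 7 (10.6%), beside 4.13% and 5.16%. At least 1 of these motifs was found in 43 of the 66 windows (65.2%), beside 18.9% and 23.2%. TATAAA was found in 2 (3.03%, beside 12.0% and 9.41%), CCAAT in 20 (30.3%, beside 35.7% and 36.4%) and CACGTG in 5 (7.58%, beside 7.43% and 8.69%). A match is a description of letters, and binding was not measured.

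The following windows belong to 2 genes with high and 2 with low log2 changes (miR-543 vector minus control vector), and are shown to let the motifs be seen beside the values. Capitals mark the ETS, NRF1 and YY1 letters on either strand. Some genes with similar changes have windows without any of these letters, and those windows are not shown. Among them are MRPL14 (log2 change 0.40, above MRPS33 at 0.34), MRPL34 (0.34) and MRPS11 (-0.38, the same as MRPL32). The windows shown therefore do not tell how often genes with large changes carry the motifs. The start of transcription is the first of the last 50 bases. MRPS24 has the YY1 letters just after the start, MRPS33 has the ETS letters from the start on, on the other strand, MRPL17 has the NRF1 letters at 2 places, each on both strands with overlapping letters, and MRPL32 has NRF1 letters at 2 places and YY1 letters far upstream.
MRPS24 (chr7:43869468-43869767, minus strand): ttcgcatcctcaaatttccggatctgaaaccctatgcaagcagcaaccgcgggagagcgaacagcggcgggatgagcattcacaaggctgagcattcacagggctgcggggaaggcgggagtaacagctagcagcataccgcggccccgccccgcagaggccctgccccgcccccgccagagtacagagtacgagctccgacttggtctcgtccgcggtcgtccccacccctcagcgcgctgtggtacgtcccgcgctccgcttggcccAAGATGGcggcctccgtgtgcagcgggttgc
MRPS33 (chr7:141014903-141015202, minus strand): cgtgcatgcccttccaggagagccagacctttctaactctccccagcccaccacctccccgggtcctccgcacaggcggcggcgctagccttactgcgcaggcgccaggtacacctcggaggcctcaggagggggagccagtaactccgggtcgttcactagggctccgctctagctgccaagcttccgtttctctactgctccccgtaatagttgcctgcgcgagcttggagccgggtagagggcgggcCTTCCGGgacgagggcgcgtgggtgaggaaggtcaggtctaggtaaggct
MRPL17 (chr11:6683291-6683590, minus strand): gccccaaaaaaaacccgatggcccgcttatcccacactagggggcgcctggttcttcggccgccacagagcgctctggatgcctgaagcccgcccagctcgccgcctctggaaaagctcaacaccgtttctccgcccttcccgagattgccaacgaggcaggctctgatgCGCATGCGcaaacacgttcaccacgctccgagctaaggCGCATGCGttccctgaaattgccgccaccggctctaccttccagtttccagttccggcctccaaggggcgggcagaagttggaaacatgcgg
MRPL32 (chr7:42932126-42932425, plus strand): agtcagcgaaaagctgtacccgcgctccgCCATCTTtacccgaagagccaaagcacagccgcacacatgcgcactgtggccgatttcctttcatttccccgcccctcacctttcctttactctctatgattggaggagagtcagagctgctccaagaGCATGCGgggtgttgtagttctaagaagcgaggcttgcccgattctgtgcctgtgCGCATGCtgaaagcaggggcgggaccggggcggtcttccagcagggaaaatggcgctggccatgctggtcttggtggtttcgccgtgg

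The YY1 letters often stood just after the start. In 15 of the 66 windows (22.7%) they stood in sense direction within the 50 bases after the start, beside 1.79% of all windows and 2.68% of those of genes on the array. Of these 15 genes 10 were of the large and 5 of the small subunit, 9 lay above 0 and the median log2 change was 0.03. The stretches of 5 of the genes are given with the letters in capitals.
MRPS24 (chr7:43869484-43869506, minus strand): cttggcccAAGATGGcggcctcc
MRPS30 (chr5:44808952-44808974, plus strand): cgcgggcaAAGATGGcggcggcc
MRPS18A (chr6:43687768-43687790, minus strand): ggtttttgAAGATGGcggccctc
MRPS18B (chr6:30617855-30617877, plus strand): cgtacgtcAAGATGGcggcgtct
MRPL20 (chr1:1407264-1407286, minus strand): acccgggcAAGATGGcagcggcg
These 5 genes had log2 changes of 0.44, -0.31, 0.10, 0.13 and 0.31 in the order shown, so that genes with nearly the same letters at the start lay on both sides of 0.

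Values are log2 signals, so a difference of 1 is a 2-fold change. The 6 arrays had medians of 5.99 to 6.01 and upper quartiles of 9.61 to 9.66. Of the 9 erythroleukaemia markers measured, 9 had control means above the array medians, with GATA1 at 15.7 and the embryonic globin gene HBE1 at 15.7. Markers of other cell types above the array medians numbered 3 of 6 for T and B lymphocytes, 5 of 8 for epithelial and kidney lines and 1 of 5 for stroma. The log2 of the summed lymphocyte signals was 10.73 to 11.05 on the control arrays and 11.27 to 11.58 on the miR-543 arrays, without overlap. Of the 6 genes 3 lay above 0, led by the T cell gene CD3D (log2 change 0.64, SE 0.16, limma adjusted p = 0.184). CD3D was also by far the brightest of the 6 (control mean 10.57, next CD3G at 7.20), so the sum mostly follows this 1 gene. CD3E, CD3G and MS4A1 had log2 changes of -0.08, -0.03 and -0.04, and CD79A and CD79B 0.26 and 0.23. The sums overlapped between groups for epithelial (15.84 to 15.91 against 15.89 to 15.93), stromal (8.83 to 9.37 against 9.21 to 9.56) and erythroleukaemia markers (17.45 to 17.61 against 17.60 to 17.66). Among the erythroleukaemia markers 8 of 9 lay above 0, with a median log2 change of 0.14. The 3 lowest p were those of the erythroid regulators KLF1, TAL1 and NFE2, with log2 changes of 0.66, 0.41 and 0.34 (SE 0.15, 0.15 and 0.14). None was called (limma adjusted p = 0.106, 0.371 and 0.423). Groups were apart for these 3 of the 9 (33.3%), beside 15.4% of all probe sets. GATA1 and LMO2, also erythroid regulators, had log2 changes of 0.01 and 0.02, and TFRC, the one below 0, had -0.08. The part of these markers in the results was not tested. The number of arrays limits the precision.

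The mRNAs of the mitochondrial ribosome had signals above the middle of the arrays, and none passed the test between the vectors. Control means ran from 6.28 for MRPS26 to 15.4 for MRPS21. All 74 lay above every array's median, and 54 lay above every array's upper quartile. Probes differ in brightness, so these levels do not rank the genes by mRNA. Fewer cells with an mRNA and less of it per cell cannot be told apart in RNA of a whole culture. No gene of the 74 was called at an adjusted p under 0.05 (limma, Benjamini-Hochberg over all probe sets), where 0.569% of all probe sets were called, and the lowest adjusted p was 0.326. At an unadjusted limma p under 0.05 there were 5 genes, or 6.76% of the 74 beside 10.6% of all probe sets. Of these, 3 were higher with the miR-543 vector (background 5.4%) and 2 lower (background 5.21%). Log2 changes, miR-543 vector minus control vector, ran from -0.40 to 0.44 with a median of 0.03, beside a median of 0.01 over all probe sets. Above 0 lay 40 of the 74 genes (54.1%), beside 52.3% of all probe sets.

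The 95% intervals are those of single genes, with no allowance for their number, and rest on the spread between these arrays. All 74 intervals lay within a 2-fold change in both directions, as did 96.6% of all probe sets. The outermost bounds were -0.85 for MRPS11 and 0.79 for MRPL14. Within a 1.5-fold change in both directions lay the intervals of 57 of the 74 genes (77.0%), beside 62.4% of all probe sets and 75.4% of the probe sets with a control mean above every array's upper quartile. The SD of the log2 changes was 0.19 over the 74 genes, 0.25 over all probe sets and 0.24 over those bright probe sets.

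**Figure D1:**
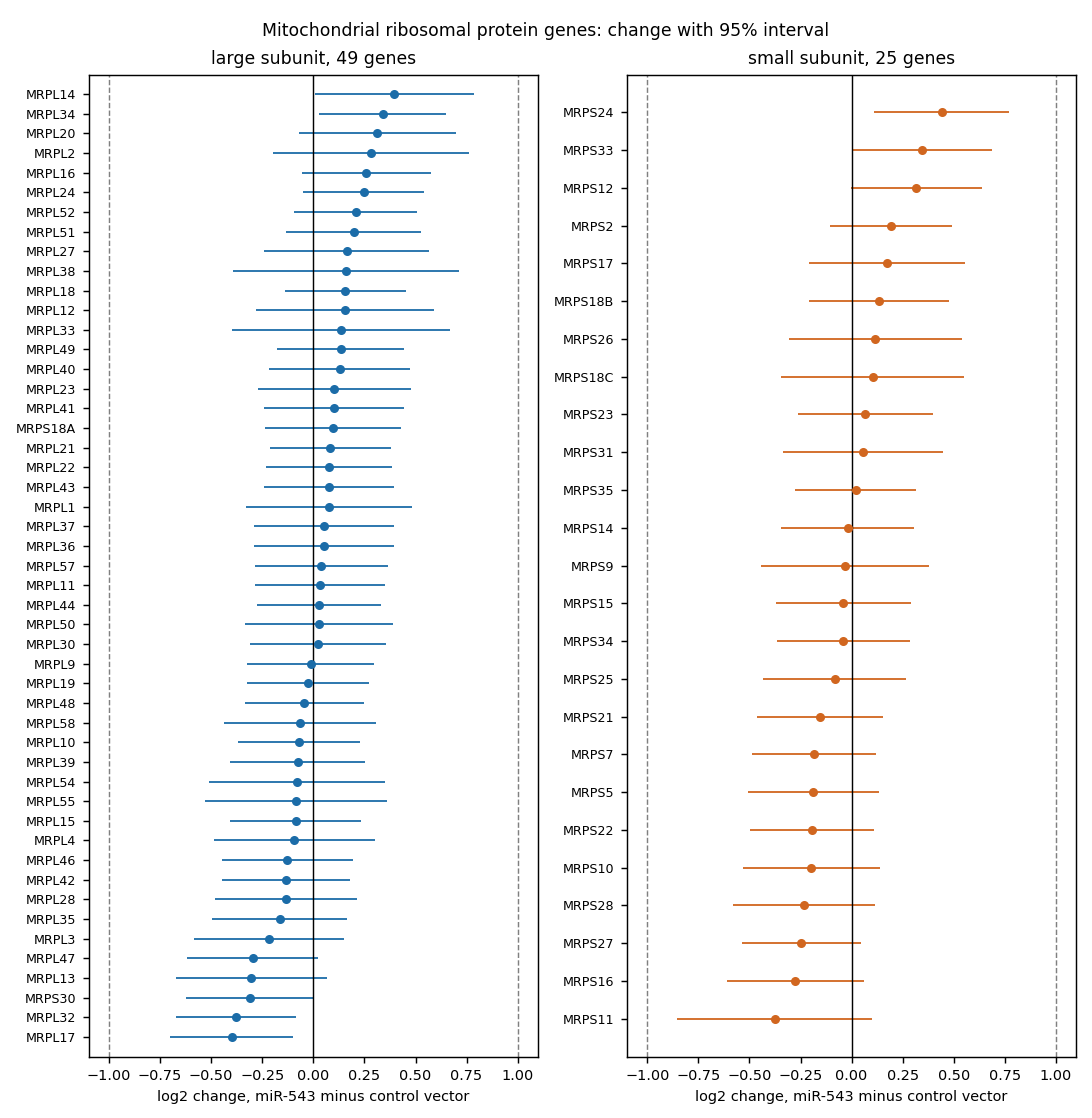
Log2 change (miR-543 minus control vector, x axis) of each gene with its 95% interval, for 49 large-subunit genes on the left and 25 small-subunit genes on the right, ordered by change. Points run from -0.40 for MRPL17 to 0.44 for MRPS24, and no interval reaches the dashed lines at a 2-fold change.

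**Figure D2:**
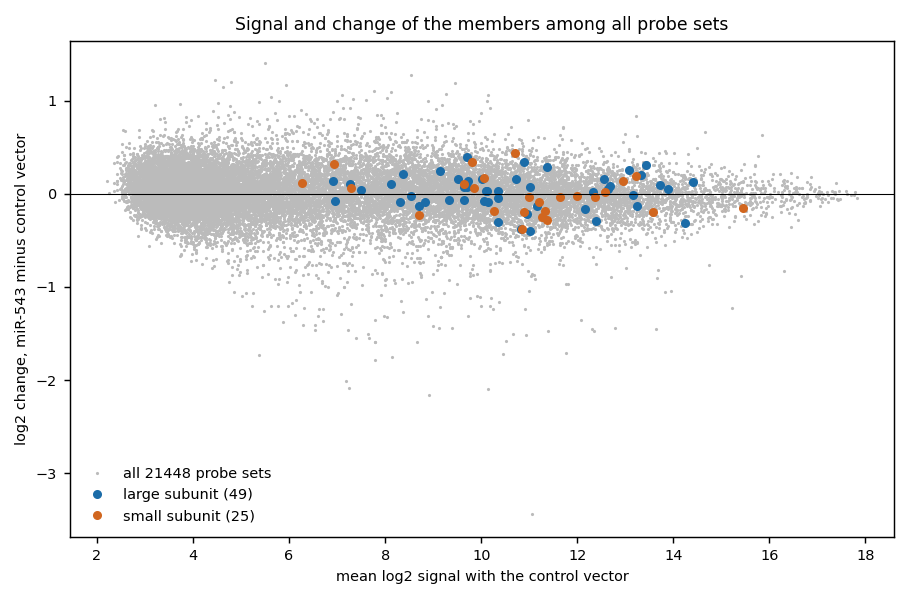
Mean log2 signal with the control vector (x axis) against log2 change (y axis) for all 21448 probe sets in grey, with the large-subunit genes in blue and the small-subunit genes in orange. The 74 coloured points span 6.28 to 15.4 in signal and stay between -0.40 and 0.44 in change.

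Among large-subunit proteins with bacterial counterparts, 17 of 30 genes lay above 0, with a median log2 change of 0.04. MRPL17 (TC1100009983.hg.1, chromosome 11), which lies near the exit of the peptide tunnel, read 10.90, 11.04 and 11.13 on the control arrays and 10.63, 10.60 and 10.64 on the miR-543 arrays. Every miR-543 array was lower than the lowest control, and the miR-543 arrays were close together. Its log2 change was -0.40 (SE 0.135, 95% interval -0.70 to -0.10, adjusted p = 0.326), the lowest of the 74. MRPL32 (TC0700007334.hg.1, chromosome 7), which is matured by a protease of the inner membrane before it joins the ribosome, read 10.91, 10.78 and 10.82 on the control arrays and 10.53, 10.41 and 10.44 on the miR-543 arrays. Here too the groups were apart, with a log2 change of -0.38 (SE 0.13, 95% interval -0.67 to -0.08, adjusted p = 0.357). These were the 2 genes lower at an unadjusted p under 0.05, and neither passed over all probe sets. Their promoter windows, printed because of their low changes, are the ones with NRF1 letters at 2 places. Over all 7 genes with NRF1 letters 4 lay above 0, with a median log2 change of 0.08.

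MRPL14 (TC0600011903.hg.1, chromosome 6), which faces the small subunit, read 9.55, 9.57 and 9.97 on the control arrays and 9.85, 10.32 and 10.11 on the miR-543 arrays. Control replicate 3 lay above the lowest miR-543 array, and the log2 change was 0.40 (SE 0.18, 95% interval 0.006 to 0.79, adjusted p = 0.466). MRPL34 (TC1900007319.hg.1, chromosome 19), the relative of a very short bacterial protein, read 10.81, 10.84 and 11.03 against 11.24, 11.13 and 11.33. Its groups did not overlap, and its log2 change was 0.34 (SE 0.14, adjusted p = 0.427). MRPL20 (TC0100012475.hg.1, chromosome 1), whose bacterial relative acts early in assembly of the large subunit, read 13.37, 13.17 and 13.74 against 13.58, 13.78 and 13.86, and its groups overlapped at control replicate 3. Its log2 change was 0.31 (SE 0.17, adjusted p = 0.569), and it was 0.185 without control replicate 2 and 0.47 without control replicate 3.

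Near the active site of peptide bond formation lie MRPL2, MRPL3 and MRPL16. Their log2 changes were 0.28 (SE 0.22), -0.22 (SE 0.17) and 0.26 (SE 0.14), each with an interval that includes 0. MRPL2 read 11.92 and 11.94 on miR-543 replicates 1 and 2 and 11.13 on replicate 3, below all 3 control arrays, which read 11.26, 11.34 and 11.54. MRPL16 read 13.19, 13.02 and 13.04 against 13.46, 13.39 and 13.18, with only its miR-543 replicate 3 within the range of the controls. MRPL3 read 11.08, 11.00 and 10.77 against 10.91, 10.83 and 10.46, with overlap. MRPL13 (TC0800011633.hg.1, chromosome 8) read 10.42, 10.27 and 10.34 against 10.27, 9.72 and 10.13, a log2 change of -0.30 (SE 0.17, adjusted p = 0.569). Its miR-543 replicate 2 was the low array, and replicate 1 equalled the lowest control. Without miR-543 replicate 2 the log2 change was -0.14.

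Parts of the large subunit with a known task had members on both sides of 0. Around the tunnel exit 4 of 6 measured genes lay above 0, with a median of 0.05. There MRPL47 (TC0300013270.hg.1, chromosome 3) read 12.40, 12.53 and 12.26 against 11.98, 12.09 and 12.23, a log2 change of -0.30 (SE 0.14, adjusted p = 0.515) with groups that did not overlap. MRPL24, of the same neighbourhood, read 9.11, 9.06 and 9.23 against 9.43, 9.34 and 9.37. It had a log2 change of 0.25 (SE 0.13, adjusted p = 0.561), again with groups apart, in the opposite direction. In the stalk, which recruits translation factors, the 4 measured genes MRPL10, MRPL11, MRPL12 and MRPL54 had log2 changes of -0.07, 0.03, 0.15 and -0.08. MRPL12 (TC1700012313.hg.1, chromosome 17) read 10.75, 10.32 and 11.13 on the control arrays and 10.81, 10.89 and 10.96 on the miR-543 arrays, so that the controls enclosed all miR-543 arrays (SE 0.20, adjusted p = 0.849). Its log2 change was -0.05 without control replicate 2 and 0.35 without control replicate 3. MRPL54 read 7.06, 6.90 and 6.92 against 6.51, 6.83 and 7.30, with the miR-543 arrays on both sides of the controls. In the central protuberance, which contacts the tRNAs and the small subunit, 3 of 5 genes lay above 0 with a median of 0.13. The log2 changes were 0.16 for MRPL18, 0.16 for MRPL38, 0.13 for MRPL40, -0.13 for MRPL46 and -0.04 for MRPL48. MRPL18 was the one without overlap, at 12.61, 12.59 and 12.45 against 12.75, 12.70 and 12.67. The other 15 large-subunit genes with bacterial counterparts had overlapping groups and log2 changes from -0.16 for MRPL35 to 0.16 for MRPL27.

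Of the large-subunit proteins found only in mitochondria, 11 of 18 measured genes lay above 0, with a median of 0.03. MRPS30 (TC0500007314.hg.1, chromosome 5), a large-subunit protein despite its letter, read 14.33, 14.30 and 14.09 on the control arrays and 13.98, 13.83 and 13.98 on the miR-543 arrays. The groups were apart, with a log2 change of -0.31 (SE 0.14, 95% interval -0.62 to 0.001, adjusted p = 0.472). MRPL52 read 8.41, 8.23 and 8.45 against 8.53, 8.61 and 8.57. It had a log2 change of 0.21 (SE 0.14, adjusted p = 0.652) with groups apart, and MRPL51 one of 0.20 (SE 0.15, adjusted p = 0.706). MRPL58, which can release stalled peptides, and MRPL44, which has a fold of RNA-cutting enzymes, had log2 changes of -0.07 and 0.03. The other 13 genes of this list had log2 changes between -0.13 and 0.16, all with overlapping groups.

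In the small subunit the member with the highest change of all 74 was MRPS24 (TC0700013547.hg.1, chromosome 7), which lines the channel where the mRNA enters. It read 10.58, 10.58 and 10.93 on the control arrays and 11.14, 11.18 and 11.09 on the miR-543 arrays. All miR-543 arrays lay above all controls, with control replicate 3 nearest to them. Its promoter window is the one printed with YY1 letters just after the start. The log2 change was 0.44, or 1.36-fold (SE 0.15, 95% interval 0.11 to 0.77, adjusted p = 0.326). MRPS12 (TC1900008036.hg.1, chromosome 19), which helps check the match of codon and tRNA, read 6.79, 6.95 and 7.05 against 7.37, 7.26 and 7.11, a log2 change of 0.32 (SE 0.14, adjusted p = 0.479). Its groups did not overlap, but its signal lay in the lower range of the 74 genes.

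MRPS11 (TC1500008225.hg.1, chromosome 15), of the platform beside the outgoing tRNA, read 10.98, 10.92 and 10.66 on the control arrays and 10.76, 9.96 and 10.71 on the miR-543 arrays. Replicate 2 of the miR-543 arrays lay far below the other 5 arrays. The log2 change was -0.38 (SE 0.22, adjusted p = 0.584), and without miR-543 replicate 2 it was -0.12. MRPS16, in which a defect was linked early to failing mitochondrial translation in people, read 11.40, 11.14 and 11.58 against 11.11, 11.10 and 11.08. The miR-543 arrays lay just below the lowest control, a log2 change of -0.28 (SE 0.15, adjusted p = 0.567). MRPS2 read 13.13, 13.34 and 13.22 against 13.38, 13.44 and 13.45, the miR-543 arrays all higher, with a log2 change of 0.19 (SE 0.13, adjusted p = 0.677).

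Over the 15 measured small-subunit genes with bacterial counterparts 5 lay above 0, with a median of -0.04. MRPS28, MRPS10, MRPS5 and MRPS7 had log2 changes of -0.23, -0.20, -0.19 and -0.18, each with overlapping groups. MRPS21, with the highest signal of the 74, read 15.59, 15.30 and 15.45 against 15.30, 15.29 and 15.29, so that its miR-543 arrays sat at the lowest control. MRPS17 had a log2 change of 0.17, and MRPS9, MRPS14 and MRPS15 lay between -0.04 and -0.02.

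The 9 small-subunit genes found only in mitochondria had 5 members above 0 and a median of 0.02. MRPS33 (TC0700012824.hg.1, chromosome 7), in whose window the ETS letters stand at the start, read 9.76, 9.74 and 9.94 against 9.97, 10.11 and 10.39, with all miR-543 arrays above the controls and a log2 change of 0.34 (SE 0.155, adjusted p = 0.471). Without miR-543 replicate 3 it was 0.23. MRPS27, a protein with RNA-binding repeats, read 11.28, 11.18 and 11.32 against 11.00, 11.02 and 11.02, with groups apart and a log2 change of -0.25 (SE 0.13, adjusted p = 0.555). MRPS22 read 13.67, 13.52 and 13.56 against 13.49, 13.41 and 13.27, also apart, with a log2 change of -0.19 (SE 0.14, adjusted p = 0.686). The other 6, MRPS23, MRPS25, MRPS26, MRPS31, MRPS34 and MRPS35, lay between -0.08 and 0.12.

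Bacterial protein S18 has 3 relatives in human mitochondria, of which MRPS18A sits in the large subunit and MRPS18B and MRPS18C in the small one. MRPS18A (TC0600011884.hg.1, chromosome 6) read 13.57, 13.79 and 13.83 against 13.96, 13.87 and 13.65. MRPS18B (TC0600014097.hg.1, chromosome 6) read 12.79, 13.08 and 12.98 against 13.10, 13.26 and 12.89. MRPS18C (TC0400008004.hg.1, chromosome 4) read 9.54, 9.40 and 10.01 against 9.49, 9.71 and 10.06. All 3 pairs of groups overlapped, and the log2 changes were 0.10 (SE 0.15), 0.13 (SE 0.15) and 0.10 (SE 0.20), with adjusted p-values of 0.878, 0.828 and 0.906. Leaving out 1 array moved each of them by over 1.5 times: MRPS18A lay between 0.02 (without control replicate 1) and 0.185 (without miR-543 replicate 3), MRPS18B between 0.045 (without miR-543 replicate 2) and 0.23 (without miR-543 replicate 3), and MRPS18C between -0.05 (without miR-543 replicate 3) and 0.28 (without control replicate 3). Inherited defects in some members are known to impair human mitochondrial translation, and 11 such genes were listed from general knowledge, without a claim to be complete. The list held MRPL3, MRPL12, MRPL44, MRPS2, MRPS7, MRPS14, MRPS16, MRPS22, MRPS25, MRPS28 and MRPS34. Of these 11, 3 lay above 0 (27.3%), with a median of -0.08, a share that rests on which genes were listed. The share above 0 was 52.3% of all probe sets and 45.5% of those with a control mean above every array's upper quartile. Called were 0 of the 11, beside 0.569% of all probe sets.

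**Figure D3:**
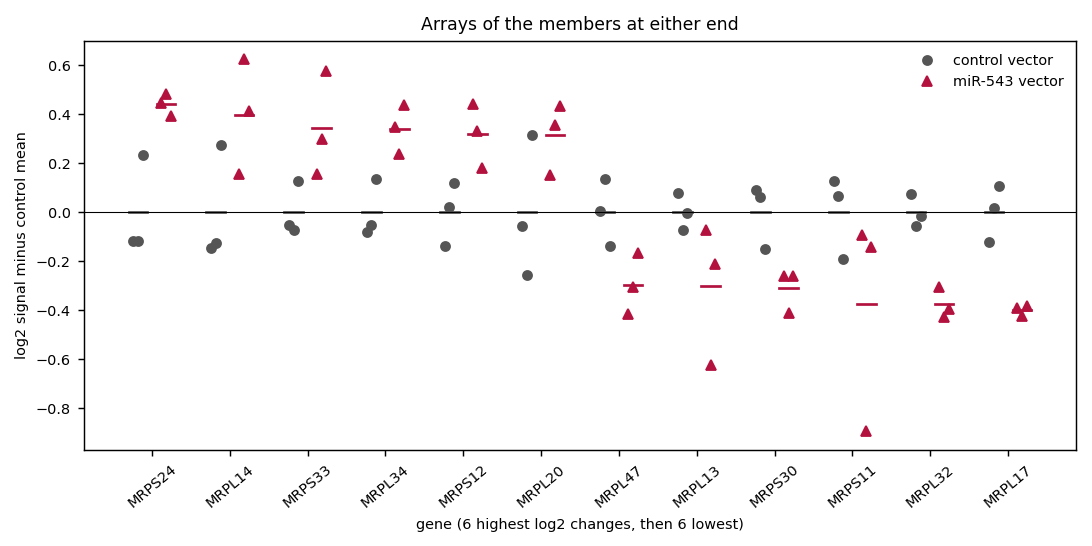
Log2 signal minus the gene's control mean (y axis) for the 6 genes with the highest and the 6 with the lowest log2 change (x axis), 1 point per array, grey circles for the control vector, red triangles for the miR-543 vector and bars for group means. Groups are apart for MRPS24, MRPS33, MRPL34, MRPS12, MRPL47, MRPS30, MRPL32 and MRPL17, while MRPS11 and MRPL13 each have 1 low miR-543 array.

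Counted over all 74 genes, the arrays of the groups did not overlap for 15 (20.3%), beside 15.4% of all probe sets and 21.4% of the probe sets with a control mean above every array's upper quartile. Higher with the miR-543 vector were 8 of them, or 10.8% of the 74 beside 7.89% of all probe sets: MRPS24, MRPS33, MRPL34, MRPS12, MRPL24, MRPL52, MRPS2 and MRPL18. Lower were 7, or 9.46% beside 7.5%: MRPL17, MRPL32, MRPS30, MRPL47, MRPS16, MRPS27 and MRPS22. Of the 54 genes with a control mean above every array's upper quartile, 5 were higher (9.26%) and 7 lower (13.0%). The shares over all probe sets that bright were 8.86% and 12.6%. Both subunits contributed to both directions. Of the 49 large-subunit genes 8 were apart (16.3%), 4 higher and 4 lower. Of the 25 small-subunit genes 7 were apart (28%), 4 higher and 3 lower.

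The subunits were then set against each other. The median log2 change was 0.04 in the large subunit, where 29 of 49 genes (59.2%) lay above 0. In the small subunit it was -0.03, and 11 of 25 genes (44.0%) lay above 0. Over all probe sets the median was 0.01, with 52.3% above 0. Over those with a control mean above every array's upper quartile it was -0.02, with 45.5% above 0. As bright as these were 34 of the 49 large-subunit and 20 of the 25 small-subunit genes. The difference of the medians, large minus small, was 0.07. On single arrays the median deviation of the large-subunit genes from their own control means, minus that of the small-subunit genes, was 0.03, 0.02 and 0.03 on the control arrays and 0.12, 0.04 and 0.08 on the miR-543 arrays. The miR-543 arrays were the higher ones, with miR-543 replicate 2 close to the controls. The pooled SD of this quantity between arrays of a group was 0.027. It pools unlike spreads, as the values ran from 0.02 to 0.03 on the control arrays and from 0.04 to 0.12 on the miR-543 arrays. Without control replicate 3 the difference of the medians was 0.01 and the small-subunit median was 0.04, above 0, and with means in place of medians the difference was 0.03. No p was computed for this difference. With the symbol letter in place of the structure the medians were 0.04 and -0.03, on 47 and 27 genes.

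**Figure D4:**
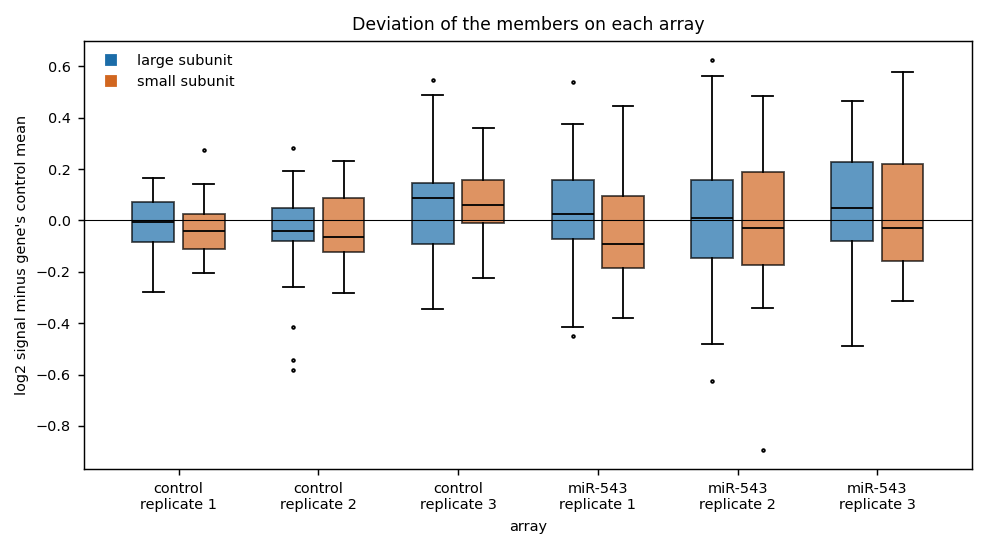
Log2 signal minus the gene's control mean (y axis) on each of the 6 arrays (x axis), as boxes (median, quartiles, whiskers to 1.5 times the box height, dots beyond them) over 49 large-subunit genes in blue and 25 small-subunit genes in orange. The medians stay between -0.09 and 0.09 on every array, with control replicate 3 the highest of the controls for both subunits.

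Among the control arrays, replicate 3 held the highest value of 42 of the 74 genes, replicate 1 that of 18 and replicate 2 that of 14. Over all 74 genes the median deviation from the control mean was -0.02, -0.04 and 0.07 on control replicates 1, 2 and 3 and -0.02, -0.002 and 0.04 on miR-543 replicates 1, 2 and 3. The medians of the controls thus spanned a wider range than those of the miR-543 arrays. Widest was MRPL38, at 9.56, 8.94 and 10.07, followed by MRPL33 at 6.98, 6.38 and 7.41 and MRPL12, each lowest on replicate 2 and highest on replicate 3. A single axis, on which control replicates 2 and 3 lay at opposite ends, held 40.2% of the within-group variation of the 74 genes. The median SD of a gene was 0.135 in the controls and 0.135 in the miR-543 arrays, beside 0.180 and 0.176 over all probe sets.

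The median log2 change was 0.07 with the ETS letters and 0.02 without, 0.04 and 0.03 for YY1, and 0.08 and 0.03 for NRF1. The share of G and C in the window ran from 43.3% to 80.7% over the 66 genes, with a median of 60.3%. Across these genes, which share the 6 arrays and are not independent replicates, G and C content and log2 change had a Pearson's r of 0.37 and a Spearman's rho of 0.38. Over all 14250 genes with a window r was 0.01, and over the 3970 of them with a bright control mean it was 0.09. Of the 32 genes above the median content 21 lay above 0 (median 0.06), and of the 34 at or below it 16 did (median -0.02). Content was also related to how far control replicate 3 deviated from its group (r = 0.23). Leaving out 1 array at a time gave r between 0.29 (without miR-543 replicate 2) and 0.38 (without control replicate 3). The cause of the relation was not tested.

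**Figure D5:**
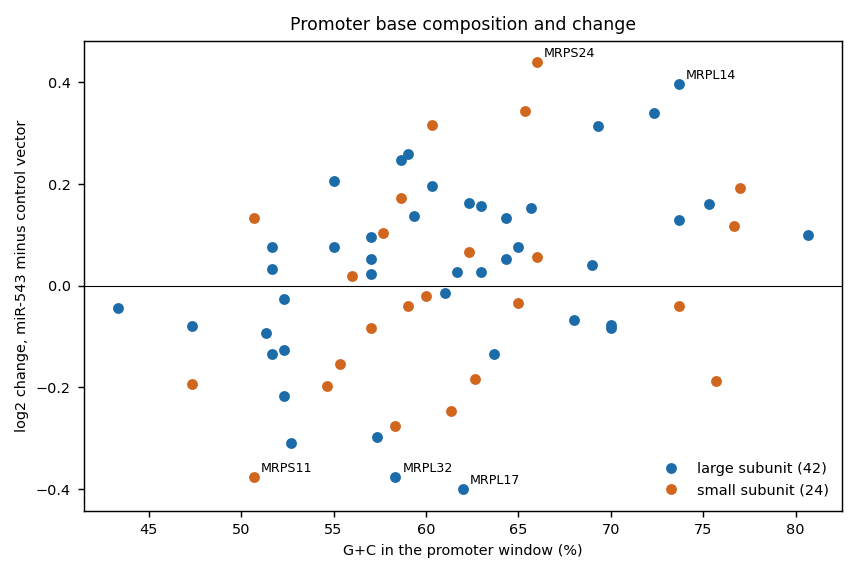
Share of G and C in the promoter window (x axis, percent) against log2 change (y axis) for 66 genes, blue for the large and orange for the small subunit. MRPS24 and MRPL14 lie high and MRPS11, MRPL32 and MRPL17 low, and the points scatter widely around r = 0.37.

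Many of these genes start beside a neighbour that is read in the opposite direction. Of the 66 genes 22 (33.3%) had such a start within 1000 bases upstream, beside 18.8% of the genes on the array with a window. The neighbour was measured for 15 of them, and MRPS11 and MRPL46 are each other's neighbour, which leaves 14 pairs. In 8 of the 14 pairs both genes had the same sign, and the Pearson's r of the changes was 0.07. Called were 0 neighbours, beside 0.569% of all probe sets, a share at which so few genes would seldom hold a call. MRPS11 and MRPL46, with 320 bases between their starts, had log2 changes of -0.38 and -0.13. MRPS12 had one of 0.32 and SARS2, the mitochondrial seryl-tRNA synthetase, one of -0.01. MRPL32 had one of -0.38 and the proteasome gene PSMA2 one of 0.14. MRPL49 and the cytosolic ribosomal protein gene FAU had 0.13 and 0.18.

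Other genes of mitochondrial gene expression were counted by lists, 82 measured of 95 genes in all. None of the 82 was called by limma, beside 0.569% of all probe sets. An unadjusted limma p under 0.05 was found for 4 (4.88%), beside 10.6%, and the median log2 change was 0.05, beside 0.01. Ribosome subunits without an MRP symbol, with OXA1L, the inner membrane insertase that receives the nascent chains, had 2 of 5 measured genes above 0 (median -0.02), including DAP3 at -0.09, OXA1L at -0.09 and CHCHD1 at 0.05. Translation factors had 6 of 13 above 0 (median -0.11), with the initiation factors MTIF2 and MTIF3 at -0.34 and -0.28 and the elongation factor TSFM at 0.27. Assembly factors had 15 of 22 above 0 (median 0.09), with the helicase DDX28 at 0.34, MPV17L2 at 0.28 and MTERF3 at 0.20.

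Enzymes that charge mitochondrial tRNAs had 9 of 20 genes above 0 (median -0.01). VARS2, the valyl-tRNA synthetase, read 6.47, 6.37 and 6.53 against 6.77, 7.40 and 6.80, with groups apart, a log2 change of 0.53 (SE 0.18, adjusted p = 0.342), the lowest adjusted p of the 82 genes. GATC and QRSL1, which together with another protein make glutaminyl-tRNA, had 0.26 and -0.26. Transcription and RNA processing had 6 of 14 genes above 0 (median -0.09). TFAM, which packages mitochondrial DNA and takes part in its transcription, read 14.41, 14.70 and 14.36 against 14.13, 14.13 and 13.98. Its groups were again apart, with a log2 change of -0.41 (SE 0.15, adjusted p = 0.365). HSD17B10, a subunit of mitochondrial RNase P, and the RNA-degrading PNPT1 had 0.45 and -0.45, with overlapping groups. Regulators of mitochondrial biogenesis had 7 of 8 genes above 0 (median 0.15), with GABPA, the DNA-binding part of GABP, at -0.21, GABPB2 at 0.28 and PPARGC1A, near the foot of the arrays at a control mean of 4.15, at 0.23.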

How the data were processed

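Expression was measured in 6 samples, 1 array each. The authors deposited log2 signals per probe set, made with Transcriptome Analysis Console 4.0 and RMA per the submitters' processing notes. RMA draws arrays to a common distribution. The sources used here give no annotation release or build, and detection calls were not used. Symbols came from the platform annotation (17709 probe sets with 1 symbol, 3739 without), chromosomes, promoters and the microRNA from RefSeq.

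All 21448 probe sets were fitted with limma 3.58.1 (lmFit, eBayes) in R 4.3.3, miR-543 minus control vector, with two-sided p-values adjusted by Benjamini-Hochberg over all probe sets. SE is the moderated standard error. Calls needed an adjusted p under 0.05. The fit was tested on simulated data. Members and lists were chosen with earlier results of these data known, lists and subunits from general knowledge, and no p was computed over a list.

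Named were the 6 highest and 6 lowest changes, members at an unadjusted p under 0.05 or below the array medians, MRPS18A, MRPS18B, MRPS18C, MRPS30, MRPS36, MRPL12, MRPL45, MRPS12, the 4 nearest the members' median level, and the 3 lowest p of each further list. Other members were named after their values were seen, to place each in its part of the ribosome. Same-numbered arrays did not deviate together (r = 0.09, -0.05 and 0.02), and no block was used in the reported values. Alternatives were another scaling, another variance model, a filter, a block and leaving out each array.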

Additional observations from a re-analysis of the deposited data

How the results depend on the processing

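Over 12 alternative settings the count of mitochondrial ribosomal protein genes called stayed at 0, and over 11 settings 0 genes of the further lists were called. The genes above 0 numbered 34 to 43. The count of all probe sets called, 122 as reported, was 252 with the trend and robust settings, 71 with the replicate number as a block (replicate block) and 34 to 59 with 1 array left out. The block changed no call among the members. With 1 array left out, the median change of all members was between -0.02 and 0.0525, the large-subunit median between 0.002 and 0.065, the small-subunit median between -0.0817 and 0.0383 (the latter without control replicate 3), and the difference between 0.00833 and 0.0867. The difference was 0.0334 with means. MRPL12 lay between -0.0533 (without control replicate 2) and 0.352, and MRPS18C between -0.05 (without miR-543 replicate 3) and 0.283, with -0.0217 without control replicate 2. The cause was not tested. The other 173 of 176 values of named members kept their sign and stayed uncalled. The filter, the other variance model and the block cannot move a log2 change, so there the signs were fixed in advance. Averaging the probe sets of a symbol cannot move a member's change either, as each member has 1 probe set. The alternatives for the relation with G and C content were chosen after seeing the data. Another background correction was not run, as scanner files were not used here. With 3 arrays a group, changes smaller than the reach of the intervals could not be told from 0, and signal over background was not tested.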
